A study of Mus musculus with 6 samples.

Results

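Oxidative phosphorylation is carried out in the inner mitochondrial membrane by complexes I to V, and 86 nuclear genes for its parts were followed here out of 12393 genes measured on the arrays. A gene was taken when its symbol in the platform annotation began with Nduf, Uqcr, Atp5 or Cox followed by a digit from 4 to 8, or was Sdha, Sdhb, Sdhc, Sdhd, Cyc1 or Cycs. This rule uses names and no measured value. It gave 33 genes of complex I, 4 of complex II, 9 of complex III, cytochrome c, 17 of complex IV, 17 of complex V and 5 complex I assembly factors. Ndufa4 bears a complex I name but is a subunit of complex IV and is counted there.

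Complexes I and II pass electrons from NADH and from succinate to ubiquinone, complex III passes them on to cytochrome c, and complex IV hands them to oxygen. Complexes I, III and IV pump protons as they do so, and complex V, the ATP synthase, lets the protons flow back and makes ATP. Most subunits are encoded in the nucleus and imported, while a core set is encoded in mitochondrial DNA, which was not analysed here. Fibroblasts in culture meet much of their ATP demand by glycolysis, and nutrient withdrawal is known to shift the balance between the pathways.

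Cells of a mouse line called PPP3R1 were profiled on 6 Affymetrix arrays, 3 from cells starved for 6 h and 3 from control cells in normal medium, each hybridised with biotin-labelled cRNA from total RNA. PPP3R1 is also a name of the calcineurin B subunit, and neither the change made to the line, whether it is a single clone, nor what was withdrawn is given in the sources used here. The titles and the design text name the same line in normal medium as control, whereas the growth and treatment texts name wild-type embryonic fibroblasts, so line and starvation cannot be told apart should the latter hold. The titles say biological replicates without saying that cultures were separate, and p-values therefore measure the spread between these samples, which may be technical. In bulk RNA, fewer cells of a type and less RNA per cell cannot be told apart.

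Of 12 fibroblast markers 11 had a mean level of at least 5 on the log2 scale, the limit used here for dim probe sets, and Thy1 lay under it. Of these markers 4 fell and 3 rose in starved cells, among them Lum (-2.05 ± 0.06), Pdgfrb (-0.81 ± 0.07) and Col1a1 (0.57 ± 0.06, limma adjusted p at most 0.000175 for each). Their summed linear level ran from 86450 to 87250 in control and from 90260 to 93920 in starved cells.

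Markers of other cell types were lower in level but not all dim. Of 7 leukocyte markers 4 lay under 5, Ptprc among them, while Cd14 fell from 8.34 to 8.02, Cd68 rose from 6.25 to 6.68 and Csf1r was at 6.18 and 6.17. Of 6 neural markers 3 lay under 5, and Tubb3 rose from 6.26 to 6.72. Of 8 muscle markers 5 lay under 5, with Des at 6.63 and 6.65 and Ckm at 5.60 and 5.57, and Tnnt2 rose from 3.62 to 4.04, a call lost when any 1 array other than starved replicate 2 was omitted (limma adjusted p from 0.063 to 0.148). Of 6 epithelial markers 5 lay under 5, and Cdh1 rose from 3.55 to 4.04, while the 3 brown fat markers measured lay under 5 with 0 called. Summed linear levels ran from 532.2 to 563.3 in control and 491.6 to 500.6 in starved cells for leukocyte markers, and from 182.0 to 205.9 and 224.8 to 236.4 for neural ones. They ran from 104.4 to 117.7 and 114.0 to 117.5 for epithelial markers, and from 46.42 to 47.84 and 42.2 to 44.73 for brown fat ones. The part of these markers in the results was not tested.

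Array medians ran from 6.74 to 6.78. Control replicate 3 stood apart on the second principal component, at -14.6 against 8.78 and 5.16 in the other control arrays, and its omission is given where it matters. The 3 prime minus 5 prime difference of the Gapdh control probe sets averaged -0.05 in control and -0.13 in starved samples (exact two-sided permutation p = 0.1, the smallest that 3 against 3 arrays can give), and its part in the results was not tested. That of Actb averaged 0.05 in both groups (exact permutation p = 0.7). The number of arrays limits the precision of every value.

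Small falls outnumbered rises. Levels are log2 values. Each change is the starved mean less the control mean of such values, given with limma's standard error (SE) for 3 arrays per group, and a gene is called at a limma adjusted p under 0.05. Of the 86 genes 27 fell, 6 rose and 53 were not called. Across all 12393 genes 20.1% fell and 20.8% rose, 40.8% in all. The median change was -0.04 over the 86 genes and -0.01 over all genes. Without control replicate 3 the counts were 21 lower and 5 higher, and across the omission of each array in turn they ran from 18 to 23 lower and from 4 to 6 higher.

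The sizes were modest. Only Ndufaf4, Cox7a2l, Ndufv3 and Ndufaf1 changed by at least 0.5 among the 86, all of them lower. By that size 14.4% of all genes changed, 6.63% lower and 7.79% higher. The probe sets of these genes are bright, and 71 of the 86 had a mean level of at least 10. Among those 71 genes 22 fell and 5 rose, with a median absolute change of 0.11. Of all 1650 genes at that level 57.8% were called, 28.3% lower and 29.5% higher. Among the 1579 other genes at that level 927 (58.7%) were called, with a median absolute change of 0.23. The level of 10 was chosen after the levels of the members were seen, and no test of this difference was made.

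**Figure D1:**
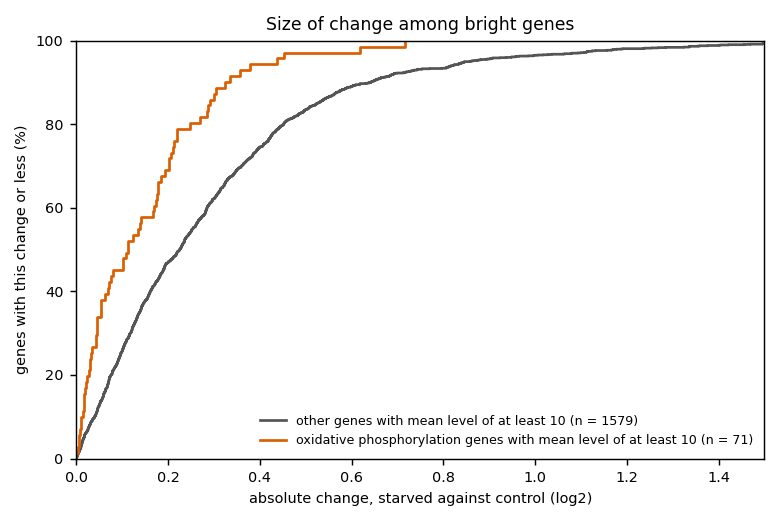
Cumulative share of genes (y axis, percent) against the absolute change between starved and control cells (x axis, log2), for probe sets with a mean level of at least 10. The curve of the 71 oxidative phosphorylation genes lies to the left of that of the 1579 other genes, with medians of 0.11 and 0.23.

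All groups of arrays were separate in every one of the 33 called genes, and in 21 of the 53 genes not called. Over all genes, 52.5% had groups that did not overlap. At a mean level of at least 10, groups did not overlap in 46 of 71 members and in 1243 of 1579 other genes.

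**Figure D2:**
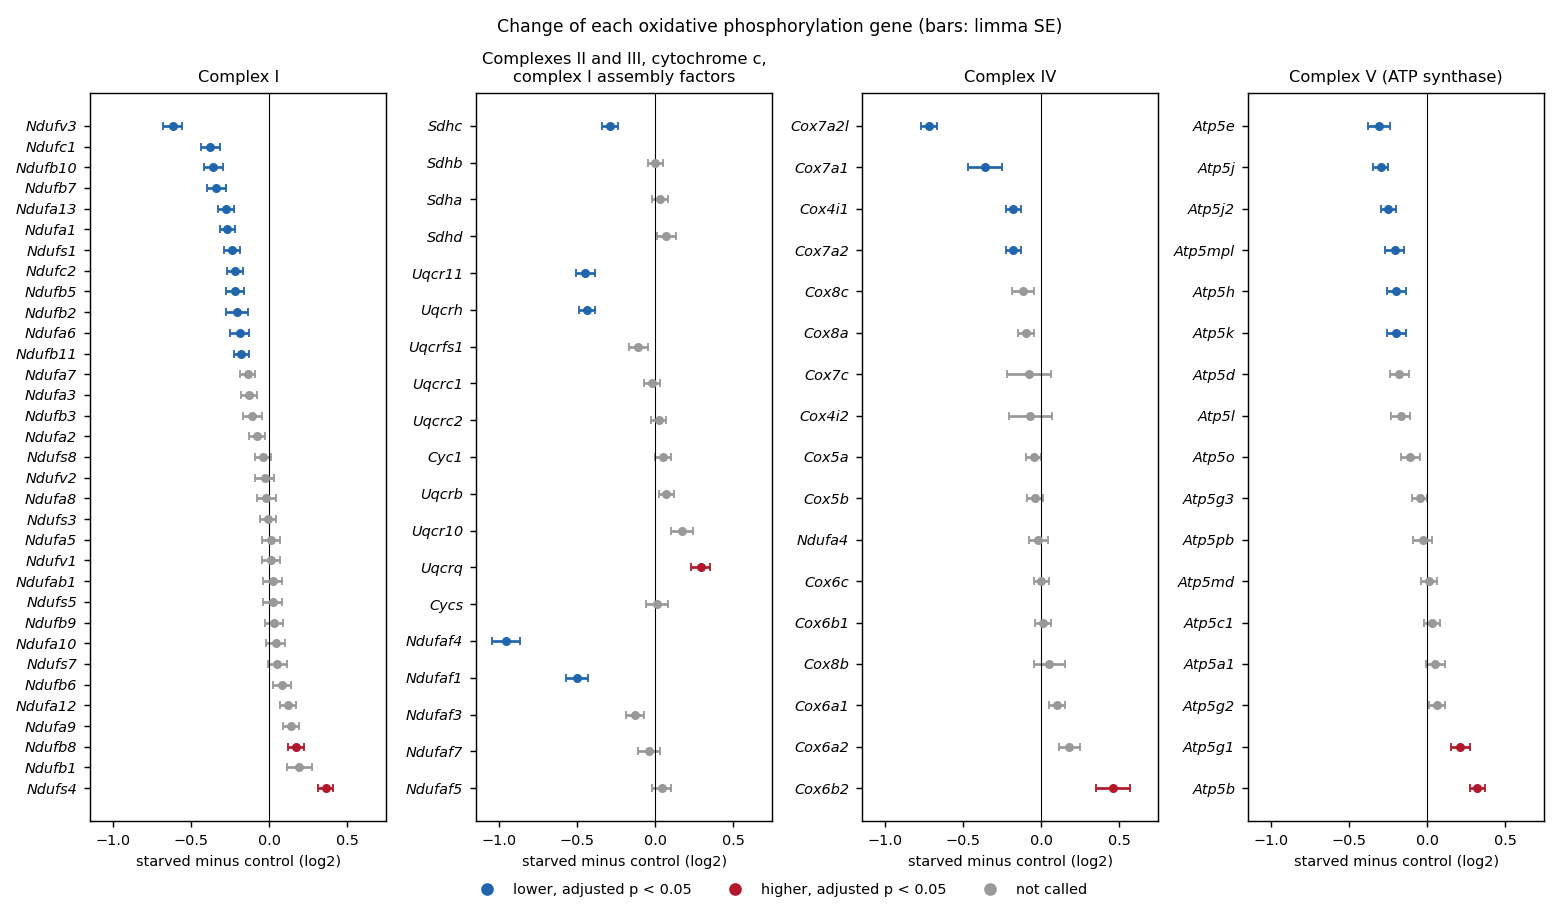
Change of each of the 86 genes (x axis, starved minus control, log2), with bars for the limma SE, sorted within each complex. Blue points were called lower, red points higher and grey points were not called; the changes run from -0.96 in Ndufaf4 to 0.46 in Cox6b2.

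Genes for respiratory subunits are known targets of nuclear respiratory factor 1 (NRF1), of the ETS factor GABPA, of YY1 and of the estrogen-related receptor ERRA, so the letters of their binding motifs were searched in promoter windows. The windows hold 250 bases before to 50 bases after a gene start, from RefSeq on GRCm38.p6, and 71 of the 86 genes matched by symbol. Both strands were searched. The palindromic NRF1 motif, spelled in the first sequence shown here, stood in windows of 6 of 71 genes, against 0.971% of all 32851 windows of that length. The ETS motif CCGGAAGT stood in 5 of 71 (3.89% of all windows), the YY1 motif AAGATGGC in 9 (2.75%) and the ERRA motif TCAAGGTCA in 2 (0.423%). Of 23 genes that fell, 2 held the NRF1 motif, 3 the ETS motif and 3 the YY1 motif. Of 43 genes not called, 4 held the NRF1 motif, 2 the ETS motif, 4 the YY1 motif and 2 the ERRA motif. Of 5 genes that rose, 2 held the YY1 motif. A match is a run of letters and not a measured site.

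The windows of 4 genes, picked by hand, are shown as examples. Ndufaf4 and Cox7a2l had the largest falls of the 86 genes, Uqcrh fell in complex III, and Ndufs4 had the largest rise in complex I. Ndufv3 (-0.62), Ndufaf1 (-0.50) and Uqcr11 (-0.45) fell more than Uqcrh (-0.44) and are not shown. Each motif stood in 2.82% to 12.7% of the 71 genes, so the marked motifs are not typical of the members. The windows shown lie at chr4:24897833-24898132 on the plus strand, chr17:83514284-83514583 on the minus strand, chr4:116075021-116075320 on the minus strand and chr13:114388045-114388344 on the minus strand. Sequences read 5′ to 3′ along the gene, and capitals mark the NRF1 motif in Ndufaf4 (bases 138 to 147 of the window), the ETS motif in Uqcrh (240 to 247) and the YY1 motif in Ndufs4 (286 to 293). No window shown holds a match other than the one in capitals, so no motifs overlap there. The Cox7a2l window holds none, which says nothing about the factors.
Ndufaf4: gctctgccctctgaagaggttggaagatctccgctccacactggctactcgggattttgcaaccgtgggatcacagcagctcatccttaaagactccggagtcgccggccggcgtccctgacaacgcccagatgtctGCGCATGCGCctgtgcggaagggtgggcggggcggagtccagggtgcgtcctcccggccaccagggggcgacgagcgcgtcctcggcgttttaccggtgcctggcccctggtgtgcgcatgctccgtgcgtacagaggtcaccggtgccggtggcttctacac
Cox7a2l: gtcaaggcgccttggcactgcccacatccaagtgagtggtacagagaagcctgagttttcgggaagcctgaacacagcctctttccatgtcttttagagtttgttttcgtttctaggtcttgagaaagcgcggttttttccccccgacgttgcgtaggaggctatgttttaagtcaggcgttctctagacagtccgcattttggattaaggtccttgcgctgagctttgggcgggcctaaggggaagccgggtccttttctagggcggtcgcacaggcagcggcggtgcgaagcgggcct
Uqcrh: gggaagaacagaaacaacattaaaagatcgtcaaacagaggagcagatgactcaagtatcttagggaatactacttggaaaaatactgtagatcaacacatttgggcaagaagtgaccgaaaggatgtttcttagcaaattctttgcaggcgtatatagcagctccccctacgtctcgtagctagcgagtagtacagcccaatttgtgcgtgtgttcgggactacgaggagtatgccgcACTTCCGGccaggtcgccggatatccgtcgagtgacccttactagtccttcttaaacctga
Ndufs4: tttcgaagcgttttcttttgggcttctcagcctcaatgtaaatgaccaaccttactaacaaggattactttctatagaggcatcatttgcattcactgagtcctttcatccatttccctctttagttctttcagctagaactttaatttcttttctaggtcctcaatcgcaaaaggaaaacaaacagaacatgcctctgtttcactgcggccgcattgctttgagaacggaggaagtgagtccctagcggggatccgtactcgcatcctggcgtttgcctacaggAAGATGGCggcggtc

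Complex I, the NADH dehydrogenase, is an L-shaped enzyme with a peripheral arm in the matrix and a membrane arm that pumps protons. Of its 33 genes 12 fell and 2 rose, with a median change of -0.04. Of the 6 measured core subunits, Ndufv1 and Ndufv2 at the NADH site and Ndufs1, Ndufs3, Ndufs7 and Ndufs8 with the iron-sulphur chain, Ndufs1 alone was called (16.7%). Ndufs1 was at 9.56, 9.60 and 9.63 in control replicates 1, 2 and 3 and at 9.36, 9.35 and 9.36 in the starved ones. All starved arrays were below all control arrays (change -0.24 ± 0.05, limma adjusted p = 0.00749). The other 5 core genes changed by -0.04 to 0.05 and their groups overlapped.

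Ndufv3 had the largest fall of complex I. It encodes a small accessory subunit beside the NADH-binding site. Its levels were 11.94, 11.87 and 11.81 in control and 11.25, 11.21 and 11.31 in starved cells. All starved arrays were below all control arrays, and the change of -0.62 ± 0.06 was 1.54-fold (limma adjusted p = 0.000135).

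Ndufs4 moved the other way within the same module. This accessory subunit stabilises the NADH-binding module, and its loss is a known cause of complex I deficiency. Its levels were 10.05, 10.09 and 10.16 in control and 10.47, 10.45 and 10.46 in starved cells, with no overlap. The gene rose by 0.36 ± 0.05 (limma adjusted p = 0.00132), and a dimmer probe set of the gene rose by 0.30 ± 0.08 (limma adjusted p = 0.0151). Its dimmest probe set was not called at -0.04 ± 0.06 (limma adjusted p = 0.682). Of the other genes of this module Ndufa6 fell by 0.19 ± 0.06 and Ndufa2, Ndufa7 and Ndufa12 were not called. The brightest probe set of Ndufa7 differed by -0.14 ± 0.05 (limma adjusted p = 0.0699), and that of Ndufa12 by 0.12 ± 0.05 (limma adjusted p = 0.0988). Of their dimmer probe sets, 2 of Ndufa7 fell and 2 of Ndufa12 rose, 1 of the latter with levels under 5. Ndufa9 and Ndufa5, accessory subunits next to the quinone site, differed by 0.14 ± 0.05 and 0.01 ± 0.06 without a call.

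The membrane arm held the other falls. In its proximal part, next to the peripheral arm, 4 of 8 genes fell and 0 rose. Ndufc1, a small membrane subunit, was at 11.73, 11.68 and 11.66 in control and 11.28, 11.27 and 11.38 in starved cells. It fell by 0.38 ± 0.06 (limma adjusted p = 0.00131). The dimmer probe set fell by 0.38 ± 0.06 as well. Ndufa13, also known as GRIM-19, fell by 0.28 ± 0.05, Ndufa1 by 0.27 ± 0.05 and Ndufc2 by 0.22 ± 0.05. The dimmer probe set of Ndufc2 was not called at -0.13 ± 0.07 (limma adjusted p = 0.178). Ndufa3, Ndufa8, Ndufa10 and Ndufs5 were not called, with changes from -0.13 to 0.04.

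In the distal part 5 of 11 genes fell and 1 rose. Ndufb10 was at 10.07, 10.13 and 10.11 in control and 9.71, 9.71 and 9.83 in starved cells, a fall of 0.36 ± 0.06 (limma adjusted p = 0.00204). Ndufb7 fell by 0.34 ± 0.06 in its brightest probe set and by 0.32 ± 0.06 in the other. Ndufb5 fell by 0.22 ± 0.06, Ndufb2 by 0.21 ± 0.07 and Ndufb11 by 0.18 ± 0.05. A dimmer probe set of Ndufb11 fell by 0.19 ± 0.05, and another was not called at -0.13 ± 0.06 (limma adjusted p = 0.118). Ndufb8, whose protein is often used as a blot marker of complex I, rose by 0.17 ± 0.05. Ndufb1, Ndufb3, Ndufb6, Ndufb9 and the acyl carrier gene Ndufab1 were not called, with changes from -0.11 to 0.19.

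Several of these smaller calls depend on single arrays. Ndufb8 lost its call on leaving out any of the 6 arrays (limma adjusted p from 0.0565 to 0.115). Ndufa6 lost it without any array but starved replicate 1 (0.0635 to 0.115). Ndufb2 lost it without control replicate 1 or 2 or starved replicate 2 or 3 (0.0778 to 0.114), Ndufb11 without control replicate 1 or 2 or starved replicate 1 or 2 (0.0646 to 0.0764), and Ndufb5 without starved replicate 3 (0.0564). Ndufb1 passed without control replicate 2 (limma adjusted p = 0.0277). Changes kept their direction in each of these fits.

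**Figure D3:**
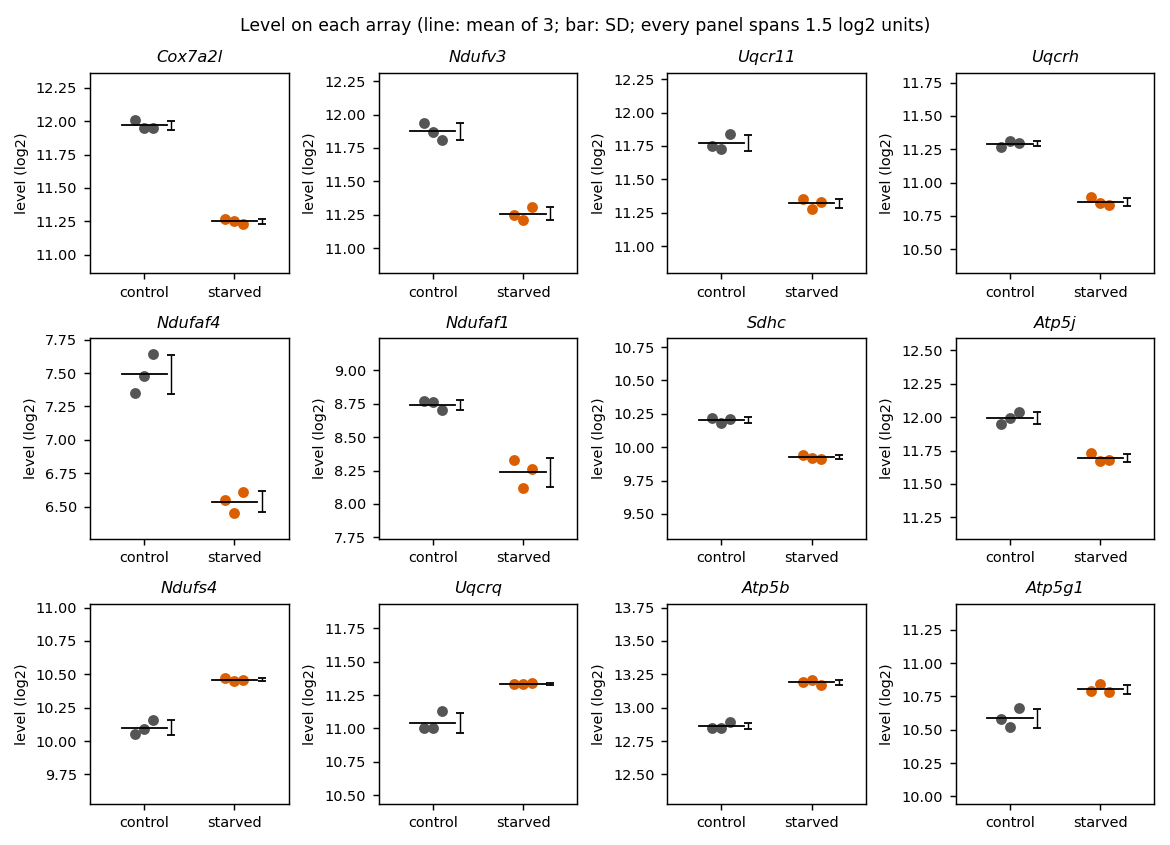
Level of 12 genes on each of the 6 arrays (y axis, log2; each panel spans 1.5 log2 units), with a line for the mean of 3 arrays and a bar for the SD. In each panel the starved and control points are separate, with the starved points lower in the first 8 panels and higher in Ndufs4, Uqcrq, Atp5b and Atp5g1.

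Among the 5 assembly factors of complex I that share its gene name, 2 fell and 0 rose. Assembly factors help to build the complex and are absent from the finished enzyme. Ndufaf4 was at 7.35, 7.48 and 7.64 in control and 6.55, 6.45 and 6.61 in starved cells. The highest starved array lay below the lowest control array, and the fall of 0.96 ± 0.09 was 1.94-fold (limma adjusted p = 8.37e-05), the largest of the 86 genes. Its other probe set fell by 1.09 ± 0.10. Ndufaf1 was at 8.77, 8.76 and 8.70 in control and 8.33, 8.12 and 8.26 in starved cells, a fall of 0.50 ± 0.07 (limma adjusted p = 0.000703). Ndufaf3, Ndufaf5 and Ndufaf7 were not called, with changes of -0.13 ± 0.06, 0.04 ± 0.06 and -0.04 ± 0.07.

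Complex II, succinate dehydrogenase, also belongs to the citric acid cycle and has no subunit from mitochondrial DNA. Its catalytic genes, Sdha for the flavoprotein and Sdhb for the iron-sulphur protein, were not called. Sdha was at 10.40, 10.41 and 10.41 in control and 10.45, 10.42 and 10.44 in starved cells, and Sdhb averaged 10.81 in both groups. The membrane anchor gene Sdhc was at 10.22, 10.18 and 10.21 in control and 9.94, 9.92 and 9.91 in starved cells. It fell by 0.29 ± 0.05 (limma adjusted p = 0.00272), while the dimmer probe set fell by 0.22 ± 0.07. The partner anchor Sdhd differed by 0.07 ± 0.06 without a call.

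Complex III, the cytochrome bc1 complex, split among its small subunits. The redox genes Cyc1, for cytochrome c1, and Uqcrfs1, for the Rieske iron-sulphur protein, were not called at 0.05 ± 0.05 and -0.11 ± 0.06. The core protein genes Uqcrc1 and Uqcrc2 changed by -0.02 ± 0.05 and 0.02 ± 0.05. Of the 5 small subunits 2 fell and 1 rose. Uqcrh, the hinge protein that contacts cytochrome c1, was at 11.27, 11.31 and 11.30 in control and 10.89, 10.85 and 10.83 in starved cells, a fall of 0.44 ± 0.05 (limma adjusted p = 0.000370). Uqcr11 was at 11.75, 11.73 and 11.84 in control and 11.35, 11.28 and 11.33 in starved cells, a fall of 0.45 ± 0.06 (limma adjusted p = 0.000507).

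Uqcrq, a subunit near the quinone sites, was higher in starved cells. Its levels were 11.00, 11.00 and 11.13 in control and 11.33, 11.33 and 11.34 in starved cells, a rise of 0.29 ± 0.06 (limma adjusted p = 0.00554). Of its 3 dimmer probe sets 1 rose and 2 lay under 5 without a call, and the mean of all probe sets did not pass (0.09, limma adjusted p = 0.164, range over its alternatives 1.72e-05 to 0.164). Uqcr10 had levels of 11.05, 11.03 and 11.14 in control and 11.33, 11.25 and 11.16 in starved cells and was not called (0.17 ± 0.07, limma adjusted p = 0.0743). Both of its dimmer probe sets rose, by 0.66 ± 0.09 and 0.43 ± 0.08. Uqcrb differed by 0.07 ± 0.05.

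Cytochrome c itself, from Cycs, was at 10.44, 10.42 and 10.61 in control and 10.52, 10.45 and 10.51 in starved cells. The groups overlapped and the change was 0.01 ± 0.07 (limma adjusted p = 0.954). Its probe sets differ: the dimmest fell by 0.38 ± 0.08 (limma adjusted p = 0.00479) and the other was not called at -0.08 ± 0.06, so the gene has no settled change.

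Complex IV, cytochrome c oxidase, stayed close to its control levels in the subunits that have 1 gene each. Cox5a, Cox5b, Cox6c and Cox7c, together with Ndufa4, were not called. Cox5b and Cox6c averaged 12.93 and 12.94 in control and 12.88 and 12.94 in starved cells. Both probe sets of Cox7c lay under 5 in both groups, so its value is of little use here.

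Cox7a2l had the largest change of complex IV. Its protein, related to the Cox7a subunits, joins complexes III and IV into respiratory supercomplexes and is also called SCAF1. Levels were 12.01, 11.95 and 11.95 in control and 11.27, 11.25 and 11.23 in starved cells. The groups are far apart relative to their spread, with SDs of 0.03 and 0.02, and the fall of 0.72 ± 0.05 was 1.65-fold (limma adjusted p = 3.36e-05). Its other probe sets fell by 0.69 ± 0.07 and 0.64 ± 0.05. All 3 carry suffixes for possible matches to several transcripts, so a change in the mix of its transcripts was not tested.

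Several complex IV subunits have paralogous genes, a broadly used form and a form known from muscle, testis, lung or hypoxic cells. Among the broad forms Cox4i1 was at 12.93, 12.90 and 12.95 in control and 12.78, 12.73 and 12.74 in starved cells, a fall of 0.18 ± 0.05 (limma adjusted p = 0.0270). Cox7a2 also fell, by 0.18 ± 0.05 (limma adjusted p = 0.0248). The dimmer probe set of Cox7a2 was not called at -0.15 ± 0.06. Cox6a1, Cox6b1 and Cox8a were not called, at 0.10 ± 0.05, 0.01 ± 0.05 and -0.10 ± 0.05. Cox7a2 lost its call on leaving out any array (limma adjusted p from 0.0506 to 0.0798), and Cox4i1 without control replicate 1 or 3 or starved replicate 2 or 3 (0.0661 to 0.0850).

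Of the 6 restricted forms 1 fell and 1 rose, both with means under the limit for dim probe sets. Cox6b2, known from testis, was at 4.46, 4.40 and 4.53 in control and 4.69, 4.94 and 5.14 in starved cells and rose by 0.46 ± 0.11 (limma adjusted p = 0.0106). Cox7a1, the heart and muscle form, was at 3.87, 4.10 and 3.77 in control and 3.55, 3.38 and 3.72 in starved cells and fell by 0.36 ± 0.11 (limma adjusted p = 0.0320). This call was lost without control replicate 1 or 2 or starved replicate 1 or 2 (0.0655 to 0.0968). Cox4i2, which replaces Cox4i1 in lung and under hypoxia, was at 5.41, 5.35 and 4.98 in control and 5.20, 5.39 and 4.95 in starved cells, and the groups overlapped. Cox6a2, Cox8b and Cox8c were not called, at 0.18 ± 0.07, 0.05 ± 0.10 and -0.12 ± 0.07, and Cox6a2 passed without control replicate 2 (limma adjusted p = 0.0429). Muscle markers beside these forms had 5 of 8 mean levels under 5, and their summed linear level ran from 248.9 to 290.4 in control and from 266.9 to 288.6 in starved cells.

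Complex V consists of a catalytic head, F1, on a membrane part, Fo, with a rotating ring of c subunits and a peripheral stalk. Of its 17 genes 6 fell and 2 rose, with a median change of -0.11. The share called was 47.1%, against 40.8% of all genes and 57.8% of genes with a mean level of at least 10. In the head the catalytic beta subunit gene Atp5b was at 12.85, 12.85 and 12.89 in control and 13.19, 13.21 and 13.17 in starved cells. Every starved array was above every control array, and the rise was 0.32 ± 0.05 (limma adjusted p = 0.00158). The alpha subunit gene Atp5a1, whose product alternates with beta in the head, differed by 0.05 ± 0.06 without a call, and the gamma gene Atp5c1 by 0.03 ± 0.05. The dimmer probe set of Atp5c1 rose from 5.51 to 6.32 (0.81 ± 0.11, limma adjusted p = 0.000794). The epsilon gene Atp5e was at 10.83, 11.00 and 10.92 in control and 10.67, 10.51 and 10.66 in starved cells, a fall of 0.31 ± 0.07 (limma adjusted p = 0.00984). The delta gene Atp5d differed by -0.18 ± 0.06 in its brightest probe set (limma adjusted p = 0.0561) and fell by 0.21 ± 0.05 in the other (limma adjusted p = 0.0143).

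The c subunit of the ring is encoded by 3 genes whose products differ in their import signals and give the same mature protein. Atp5g1 was at 10.58, 10.52 and 10.66 in control and 10.79, 10.84 and 10.78 in starved cells, a rise of 0.21 ± 0.06 (limma adjusted p = 0.0206). Atp5g2 and Atp5g3 differed by 0.06 ± 0.05 and -0.05 ± 0.05 without a call. The Atp5g1 call was lost without control replicate 1 or 2 or starved replicate 2 (0.0561 to 0.0706).

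Stalk and membrane subunits of complex V accounted for the other falls. Of 4 stalk genes 2 fell, with Atp5j at 11.95, 11.99 and 12.04 in control and 11.73, 11.67 and 11.68 in starved cells (-0.30 ± 0.05, limma adjusted p = 0.00317) and Atp5h lower by 0.20 ± 0.06. Atp5o, for the oligomycin sensitivity protein, and Atp5pb, for the b subunit, were not called at -0.11 ± 0.06 and -0.03 ± 0.06. The dimmer probe set of Atp5o fell by 0.25 ± 0.06 (limma adjusted p = 0.0133). That of Atp5h was not called at -0.17 ± 0.06 (limma adjusted p = 0.0673). Of 5 small membrane subunits, some of which hold ATP synthase dimers together, 3 fell. They were Atp5j2 (-0.25 ± 0.05), Atp5mpl (-0.21 ± 0.06) and Atp5k (-0.20 ± 0.06), and all 3 probe sets of Atp5k fell. Atp5l and Atp5md were not called at -0.17 ± 0.06 and 0.01 ± 0.05. The call of Atp5h was lost without control replicate 3 or starved replicate 2 or 3 (0.0566 to 0.0686), that of Atp5mpl without control replicate 1 or 3 or starved replicate 2 or 3 (0.0587 to 0.111), and that of Atp5k without any array but control replicate 2 (0.0545 to 0.0932).

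Genes that serve the same machinery were counted beside the subunits. For comparison with the counts of these lists, here and below, 20.1% of all 12393 genes were lower and 20.8% higher. Among genes with a mean level of at least 10 these shares were 28.3% and 29.5%. Several lists are brighter than the genes at large. Median levels were 9.11 for the assembly factors, 9.44 for import and 9.53 for the mitochondrial ribosome, against 7.25 over all genes. No comparison matched for level was made for the lists. Assembly factors outside the name rule were lower in 20 of 32 cases and higher in 1 case, and the median change was -0.24. Higd1a, a hypoxia-induced protein bound to complex IV, was at 10.95, 10.94 and 10.53 in control and 9.79, 9.60 and 9.75 in starved cells (-1.09 ± 0.12, limma adjusted p = 0.000229). Control replicate 3 was the lowest of the control arrays. The copper factors of complex IV Cox19 and Sco2 fell by 0.76 ± 0.06 and 0.69 ± 0.06, and Higd2a differed by -0.14 ± 0.06 without a call. The number lower ran from 16 to 18 on leaving out each array, and was 13 once suffixed probe sets, which may match more than 1 transcript, were left out. Genes with suffixed probe sets alone are not measured in that setting. The values given for Higd1a and Sco2 come from suffixed probe sets.

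Regulators of mitochondrial biogenesis and mitochondrial DNA expression fell in 10 of 19 and rose in 4. The coactivator genes Pprc1 and Ppargc1a, which raise the output of respiratory genes, fell by 0.92 ± 0.06 and 0.73 ± 0.06. Gabpb1, the partner subunit of GABPA, rose by 0.78 ± 0.06, while Yy1 differed by 0.11 ± 0.06 without a call. The following genes were singled out for their roles after their values were seen. Nrf1 was at 6.87, 6.92 and 6.82 in control and 7.28, 7.55 and 7.19 in starved cells (0.47 ± 0.09, limma adjusted p = 0.00464). Tfam, which packages mitochondrial DNA, and Polrmt, its RNA polymerase, fell by 0.40 ± 0.07 and 0.38 ± 0.05. The other called rises of this list were Tfb1m (0.49 ± 0.06, limma adjusted p = 0.000269) and Mterf4 (0.33 ± 0.07, limma adjusted p = 0.00478). On leaving out each array the number lower ran from 7 to 9 and the number higher was 4.

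Import machinery genes fell in 11 of 21 and rose in 2, led by Timm10 (-0.57 ± 0.06), Timm22 (-0.42 ± 0.06) and Timm8b (-0.40 ± 0.07), while Tomm22 was not called at -0.16 ± 0.05. The number lower was 7 without starved replicate 2 or without starved replicate 3. Mitochondrial ribosomal protein genes fell in 24 of 74 and rose in 18, with Mrpl41 lower by 1.05 ± 0.06 and Mrps30 and Mrpl1 higher by 0.75 ± 0.05 and 0.68 ± 0.06. The Mrpl1 change was -0.12, without a call, once suffixed probe sets were left out. Mrpl13 was not called at 0.07 ± 0.06. Mitochondrial chaperones and proteases fell in 3 and rose in 1 of 13, and the chaperonin gene Hspd1 was at 11.90, 11.89 and 11.94 in control and 11.92, 11.95 and 11.95 in starved cells.

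Routes into and out of the chain were mixed. Of 8 genes that feed electrons to ubiquinone by other routes 3 rose and 2 fell: Sqor, the sulfide oxidase, rose by 0.58 ± 0.06, Chdh by 0.67 ± 0.13, and Dhodh, of pyrimidine synthesis, fell by 0.71 ± 0.07, while Etfb was not called at -0.03 ± 0.06. Of 9 ubiquinone synthesis genes 3 rose and 2 fell, with Coq8a at 5.60, 5.12 and 5.52 in control and 6.90, 6.61 and 7.11 in starved cells (1.46 ± 0.16, limma adjusted p = 0.000211). Coq4 and Coq9 fell by 0.44 ± 0.06 and 0.40 ± 0.05, and Coq7 was not called at -0.08 ± 0.06. Among 4 uncoupling proteins and relatives Slc25a30 and Slc25a14 rose by 0.61 ± 0.05 and 0.35 ± 0.06, and Ucp3 differed by -0.10 ± 0.13.

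Of 11 genes for carriers, channels and kinases that handle ATP, ADP and phosphate, 3 rose and 1, the kinase gene Ak4, fell. The nucleotide exchanger gene Slc25a5 was at 11.72, 11.79 and 11.78 in control and 12.25, 12.28 and 12.34 in starved cells (0.53 ± 0.06, limma adjusted p = 0.000190), and Slc25a42 rose by 0.43 ± 0.06. The phosphate carrier gene Slc25a3 differed by 0.03 ± 0.05. The mitochondrial adenylate kinase gene Ak4, a known hypoxia target, was at 7.72, 7.82 and 7.32 in control and 5.06, 5.25 and 5.31 in starved cells, and fell by 2.42 ± 0.13 (limma adjusted p = 8.82e-06). Control replicate 3 was again the lowest control array.

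**Figure D4:**
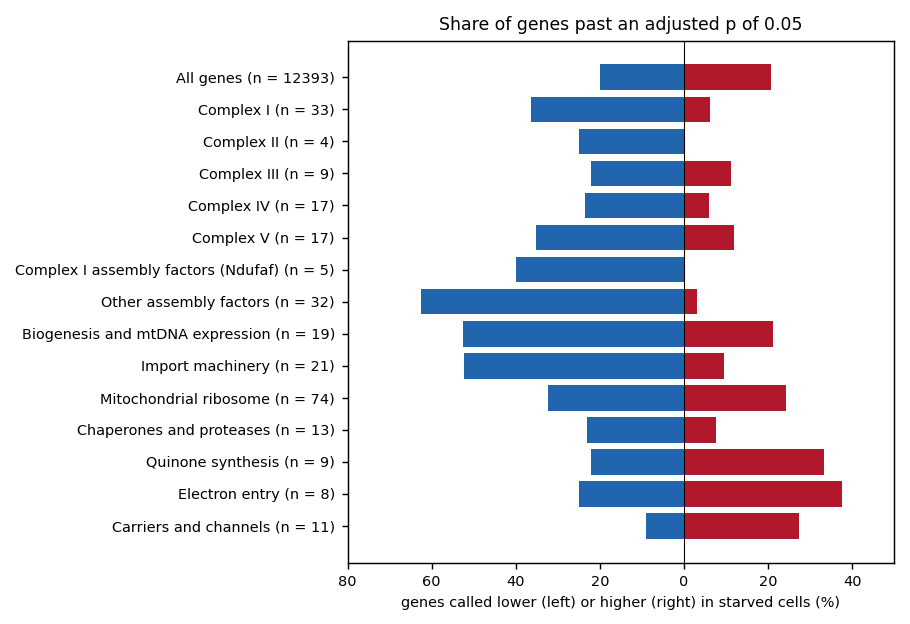
Share of measured genes called lower (left) or higher (right) in starved cells at a limma adjusted p under 0.05, for all genes, for each complex and for related lists, with the number of genes in brackets (x axis, percent). Falls outnumber rises in complexes I to V, and among the listed assembly factors 20 of 32 genes fell and 1 rose. The bar for carriers and channels also holds the kinase genes Ak4 and Ckmt1.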

How the data were processed

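Labelled cRNA was read on 6 Affymetrix mouse arrays. The deposited values are log2 expression levels of probe sets, made by the authors with affy and RMA, per the submitters' processing notes. Neither scan batches nor tool versions are stated there. RMA quantile normalizes the arrays, so a shift of most transcripts in 1 direction would not be visible, and the values carry no detection calls.

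Of 22690 probe sets, with 0 missing values, 64 controls were set aside and 22626 were tested. By the platform annotation 20380 probe sets had 1 gene name, 691 had several and 1555 had none. The members have 160 probe sets of their own, and 8 that also name another gene were left out. Each gene is represented by its brightest probe set by mean over all 6 arrays. All 86 members matched RefSeq by Entrez identifier. The brightest probe set of 24 members has the suffix _a_at (several transcripts of a gene), of 11 _s_at and of 6 _x_at (possible matches to other genes).

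The test was limma's moderated one (version 3.58.1 under R 4.3.3, two-sided, no covariate), with Benjamini-Hochberg adjustment over all tested probe sets and a threshold of 0.05. The fit was tested on simulated data. Lists were read as counts and medians, with no set test. The members and lists were chosen with earlier results of these data known. The text names, per complex, up to 6 called genes by size and up to 3 of the highest level not called, fixed paralogues, and from each other list up to 3 called genes and 1 not called. Further members are named so that each is accounted for. Replicate numbers were not used to pair arrays. Alternatives were a filter at a level of 5, another quantile normalization, median centring, trended robust moderation, array weights, leaving out suffixed probe sets, the mean of probe sets, adjustment over 1 probe set per gene, a threshold of 0.01, the replicate block and leaving out each array. Plots used matplotlib 3.10.9 (Python 3.11.15).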

Additional observations from a re-analysis of the deposited data

How the results depend on the processing

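Of the 33 genes called, 18 kept their call and direction under every one of the 16 alternatives that measured them. A further 15 lost the call under at least 1 and 0 changed direction. Genes with suffixed probe sets alone, Cox7a2l and Ndufv3 among them, were measured in 15 of the alternatives. Of the 53 not called, 16 passed under at least 1 alternative with the sign of the main fit, and Cycs passed with the opposite sign. The number lower (27) was 16 at an adjusted p of 0.01 and 16 after leaving out suffixed probe sets (those that may match more than 1 transcript), which takes 21 genes out, Cox7a2l and Ndufv3 among them. Leaving out each array gave 18 to 23. The number higher (6) was 3 at an adjusted p of 0.01, 10 with an intensity trend and robust moderation and 10 without dim probe sets, and 4 to 6 on leaving out each array.

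The titles do not say that same-numbered arrays belong together, so the numbers are not taken as pairs. Deviations from the group means correlated at -0.0944, 0.0148 and -0.00833 for same-numbered arrays. For arrays of unlike number the correlations ran from -0.0813 to 0.0887. Deviations from a mean of 3 arrays balance across partners, so these values cannot exclude a pairing. With the replicate block 19 genes were lower and 4 higher.

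The median change of complex I (-0.04) was -0.06 with array medians subtracted, with the mean of all probe sets and with a second quantile normalization, and -0.01 after leaving out suffixed probe sets. That of complex II (0.01) was -0.02 with the mean of all probe sets and -0.01 with a second quantile normalization. That of complex V (-0.11) was -0.17 with the mean of all probe sets, -0.05 after leaving out suffixed probe sets, and between -0.14 and -0.09 on leaving out each array. Cycs (0.01) was -0.15 with the mean of all probe sets and -0.38 after leaving out suffixed probe sets (limma adjusted p = 0.00536), where its dimmest probe set alone is left. The assembly factors (-0.13) were at -0.50 without such probe sets, with 3 genes left. That setting also turned the sign of Coa5 (0.06), Cox17 (0.11), Mrpl1 (-0.12), Mrpl38 (-0.06), Mrpl51 (-0.29) and Timm10b (0.03), each then measured by another probe set. In the other cases the cause was not tested.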
